A study of Oryza sativa with 6 samples.

Results

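The segment described here is a run of 122 neighbouring loci on rice chromosome 11, from LOC_Os11g40760 to LOC_Os11g42070, out of 55986 gene models in the count table. It was delimited by locus number after a cluster of genes with few or no reads in the tetraploid had been seen there. The difference between the lines inside it is therefore given as a description, with no test. The 30 loci on each side serve as flanks. Leaf RNA was sequenced from Balilla-4x, an artificially made tetraploid (2n = 48), and from Balilla-2x, the japonica diploid (2n = 24) whose chromosomes were doubled to make it. Each line had 3 libraries from leaves of 4-week-old plants grown under normal conditions in a Shanghai paddy field. Both lines share the Balilla background, and the labels name no transgene or mutation in either. The labels do not say whether the libraries came from separate plants, so the spread between them may be technical.

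An autopolyploid carries extra copies of the chromosome set of its parent and no set from another species. Synthetic polyploids are studied in cereals for their larger organs and for changes in gene activity that accompany genome doubling. Rice chromosome 11 is known for its clusters of disease resistance genes, families whose number and sequence differ widely between varieties. The identifiers are locus numbers that run along the chromosome in gene order. They give an order and not a distance in bases. None of the 182 identifiers of the segment and flanks was matched in the RefSeq gene table (assembly ASM3414082v1), and the count table holds no names. Members are therefore called by their identifiers, and no function is assigned to them.

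Only some of the segment was silent in the tetraploid. Of the 122 members, 56 had no count in any of the 6 libraries, which is 45.9% of the segment and 44.7% of all gene models in the table. Another 24 had counts too low to pass the filter on low counts. The remaining 42 were tested. Among these, 16 were at least 2-fold lower in Balilla-4x with an edgeR adjusted p under 0.05, a call made for 5.18% of the 20976 tested genes of the genome. At least 2-fold higher were 4 members, a call made for 6.55% of all tested genes. The other 22 did not pass both thresholds. In all, 22 members had an adjusted p under 0.05 in the edgeR fit, with 26.1% of tested genes called in this way. On chromosome 11, segment included, the same calls (lower, higher, any) were made for 10.5%, 9.56% and 32.4% of 1214 tested genes. The rule used this same comparison, so nothing is read from the shares, and 12 of the tested members passed the filter through their Balilla-2x counts alone and 3 through their Balilla-4x counts alone, where a difference was bound to appear.

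The 16 lowered members lay in 3 stretches, separated by genes that were read in both lines. Members were joined into a stretch when at most 2 other tested members lay between them, a limit set with the counts in view. The first stretch ran from LOC_Os11g40760 to LOC_Os11g41100 and held 9 lowered members among 11 tested ones. The second ran from LOC_Os11g41210 to LOC_Os11g41380, with 4 lowered among 5 tested. The third, LOC_Os11g42030 to LOC_Os11g42070, closed the segment with 3 lowered members, the only 3 tested there. In all 16 the lines did not overlap, as was the case for 44.3% of tested genes in the genome. These members were called on this same comparison, so separate lines were close to built in and nothing is read from this. A label of silence in the tetraploid fits 12 of these 16 members, which had at most 2 counts in any Balilla-4x library. The other 4 were reduced. The stretches took in every lowered member, so by construction no tested gene between them was at least 2-fold lower. In the first gap 5 of 8 loci were tested, and in the second 18 of 60. In these gaps 3 and 28 loci had no count in any library.

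**Figure D1:**
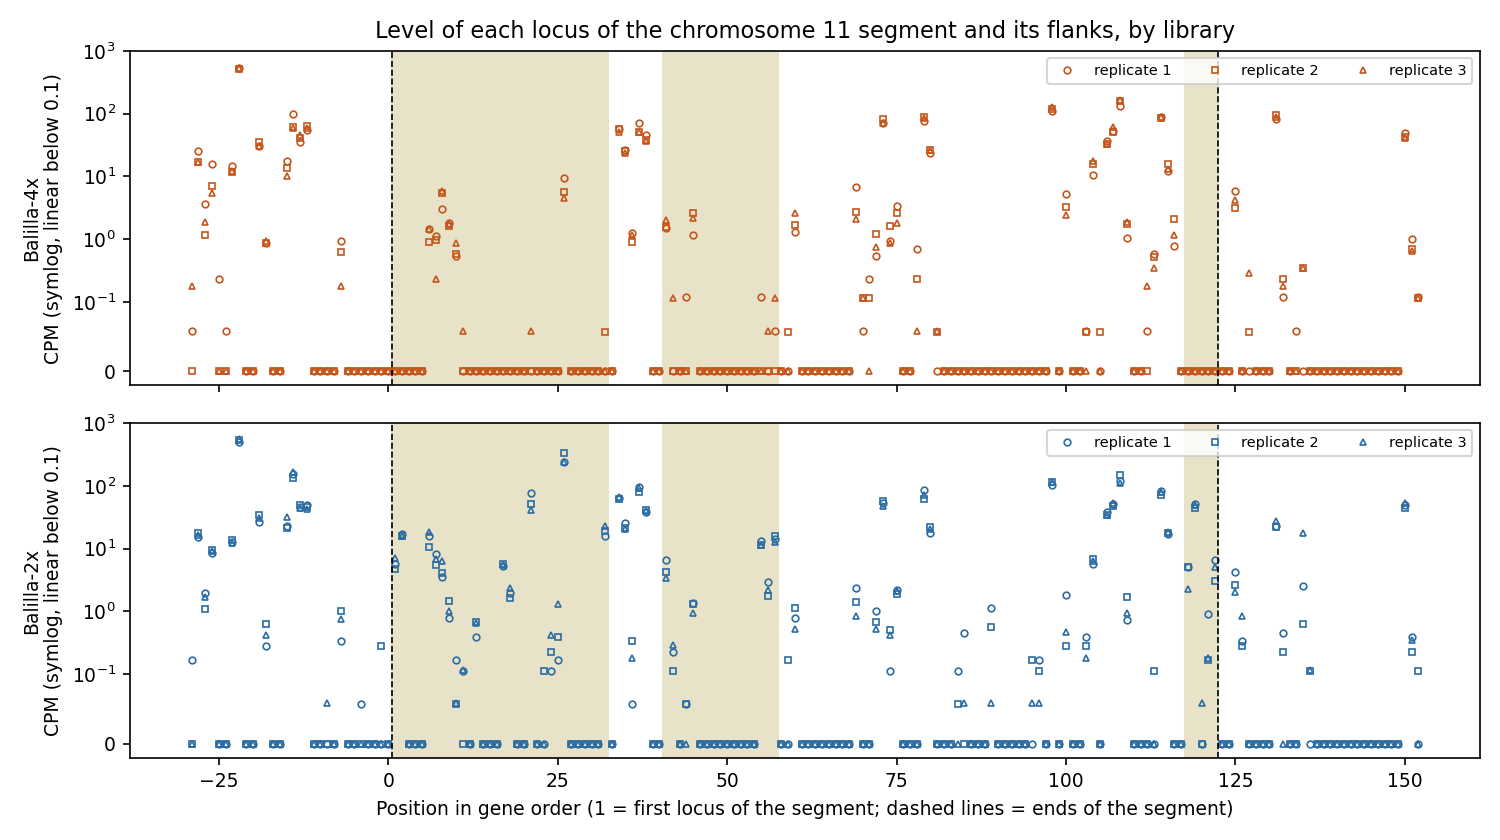
CPM (symmetrical log scale, linear below 0.1) of each locus in gene order, with Balilla-4x libraries above and Balilla-2x libraries below; each point is 1 library and the shaded bands are the 3 lowered stretches. In the bands most Balilla-4x points sit at or near 0 where Balilla-2x points reach up to 333 CPM, and between the bands the higher points reach similar heights in both panels.

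Summed over all 122 members, the segment reached 852, 876 and 883 CPM (counts relative to the TMM-scaled library total) in the Balilla-4x libraries, against 1301, 1341 and 1247 CPM in the Balilla-2x libraries. The tetraploid thus kept 67.1% of the diploid's summed level, a log2 ratio of -0.57. The sum was then split by the calls of this same comparison, so a loss in the lowered members was bound to appear. They summed to 10.5 ± 2.89 CPM in the tetraploid and 489 ± 43.2 CPM in the diploid (SD, n = 3 each), so the tetraploid held 2.14% of their diploid level. The other 106 members summed to 860 ± 18.8 CPM in the tetraploid and 807 ± 8.18 CPM in the diploid (SD, n = 3 each), or 107% of the diploid level. A single member, LOC_Os11g41034, carried much of the loss. Without it the segment stood at 84.2% of the diploid sum.

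**Figure D2:**
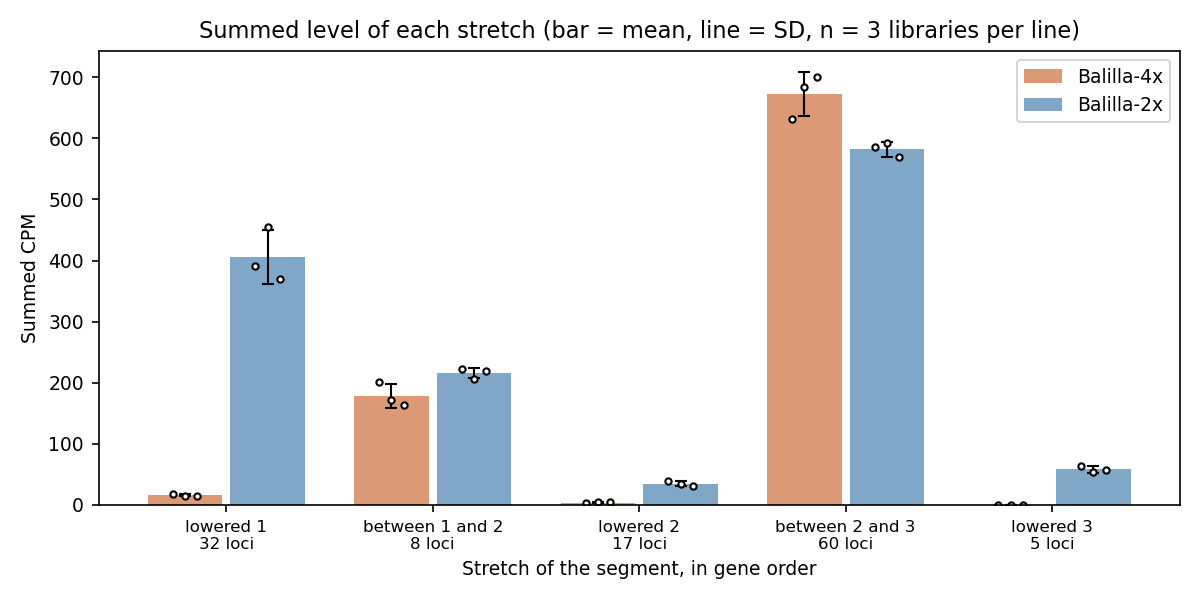
Summed CPM of the 5 consecutive stretches of the segment in Balilla-4x (left bar) and Balilla-2x (right bar), with the mean, the SD over 3 libraries and each library as a point. The 3 lowered stretches reach 15.8, 3.88 and 0 CPM in Balilla-4x against 405, 34.8 and 58.4 CPM in Balilla-2x, while the 60 loci between the second and the third reach 672 and 582 CPM.

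The strictest description is that of members read in the diploid only, with at most 2 counts in each Balilla-4x library and at least 30 in each Balilla-2x library. The segment held 11 of them, out of 49 in the whole table (0.0875% of gene models) and 27 on chromosome 11. Together these 11 had 8 counts over all 3 Balilla-4x libraries and 9931 counts over the Balilla-2x libraries. No member was read in Balilla-4x only by the same limits, which 53 gene models of the table met (0.0947%). Just outside the limits was LOC_Os11g40940, with 0 counts in each Balilla-4x library and 35, 29 and 40 in the Balilla-2x libraries. The member nearest inside was LOC_Os11g41370, with 31 as its lowest Balilla-2x count.

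**Figure D3:**
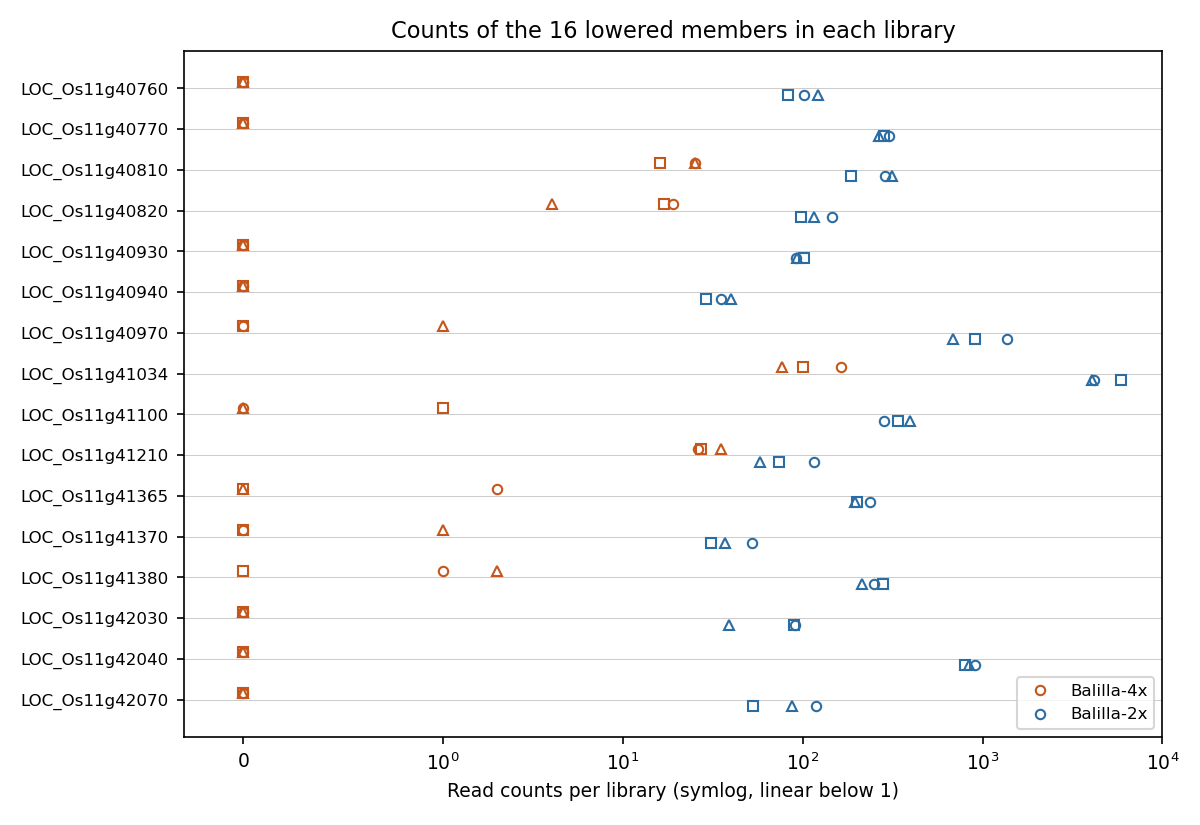
Read counts per library (symmetrical log scale, linear below 1) of the 16 lowered members in gene order; orange marks Balilla-4x, blue Balilla-2x, and circles, squares and triangles are replicates 1, 2 and 3. In 12 members the 3 Balilla-4x libraries hold 0 to 2 counts each, and in the other 4 they hold 4 to 162.

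The first stretch opened with a pair of fully silent loci. LOC_Os11g40760 had 0 counts in each Balilla-4x library, against 101, 83 and 121 counts in the Balilla-2x libraries, or 5.87 ± 1.24 CPM (SD, n = 3). With the floor of 3 counts per library, the tetraploid was at least 33.8-fold lower. LOC_Os11g40770 likewise had 0 counts in each Balilla-4x library and 303, 282 and 264 counts in Balilla-2x, which made the tetraploid at least 93.6-fold lower. At 23.6 ± 1.06 FPKM in Balilla-2x (SD, n = 3), a level per length of gene model, it stood above 80.8% of the genes with a count in that line.

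Next to them were loci that the tetraploid still read at a reduced level. LOC_Os11g40810 had counts of 25, 16 and 25 in the Balilla-4x libraries and 285, 185 and 313 in the Balilla-2x libraries. Its fitted log2 fold change was -3.55 (SE 0.34), which left 8.48% of the diploid level. LOC_Os11g40820, the longest lowered member with a gene model of 5898 bases, had 19, 17 and 4 counts in Balilla-4x and 145, 98 and 115 in Balilla-2x. Its log2 fold change was -3.14 (SE 0.74). The Balilla-4x libraries spread widely here, with replicate 3 far below the other two, but no Balilla-4x value came near a Balilla-2x value.

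Read genes then interrupted the loss. LOC_Os11g40830 had 3.05, 5.40 and 5.90 CPM in the Balilla-4x libraries and 3.52, 4.13 and 6.29 CPM in the Balilla-2x libraries, so the lines overlapped. LOC_Os11g40840 was read at 1.72 ± 0.116 CPM in the tetraploid and 1.09 ± 0.346 CPM in the diploid (SD, n = 3 each) and was not called. The short gene model beside it, LOC_Os11g40850 (216 bases), had 9, 10 and 15 counts in Balilla-4x and 3, 1 and 1 in Balilla-2x, too few for the filter. These 3 neighbours had no lower level in the tetraploid, although lowered loci lay on either side of them.

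After that interruption the stretch continued with LOC_Os11g40930, which had 0 counts in each Balilla-4x library and 92, 101 and 93 counts in the Balilla-2x libraries, at least 31.6-fold lower in the tetraploid. Its diploid libraries were close together, at 5.49 ± 0.249 CPM (SD, n = 3). LOC_Os11g40940, given above, was at least 11.5-fold lower and had the lowest level per length of the lowered members, 0.899 ± 0.167 FPKM in Balilla-2x (SD, n = 3). LOC_Os11g40970 showed the widest ratio among the lowered members with 1 to 3 Balilla-4x counts in all, those with 0 having only bounds. Its counts were 0, 0 and 1 in the Balilla-4x libraries and 1367, 908 and 686 counts in the Balilla-2x libraries. The diploid was 2940 times higher, with an interval of 527 to 116172 (exact Poisson, 95%). The diploid level itself varied, at 56.6 ± 19.0 CPM (SD, n = 3), but its lowest library was far above the single tetraploid count.

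LOC_Os11g41034 was the most abundant lowered member and was reduced, not silent. Its counts were 162, 100 and 77 in the Balilla-4x libraries, against 4177, 5888 and 4054 in the Balilla-2x libraries. In levels this was 6.56 ± 2.61 CPM in the tetraploid and 270 ± 54.6 CPM in the diploid (SD, n = 3 each), with a fitted log2 fold change of -5.36 (SE 0.36). The tetraploid kept 2.43% of the diploid level. Per length the gene stood at 2.02 ± 0.808 FPKM in the tetraploid and 79.9 ± 16.2 FPKM in the diploid (SD, n = 3 each), above 41.5% and 95.9% of the genes with a count in those lines. LOC_Os11g41100 closed the stretch with 0, 1 and 0 counts in Balilla-4x and 281, 340 and 394 in Balilla-2x. The diploid was 1008 times higher, with an interval of 180 to 39848.

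Beyond LOC_Os11g41100 the next 8 loci, LOC_Os11g41110 to LOC_Os11g41190, formed the first gap and held 5 tested genes. These loci summed to 179 ± 19.5 CPM in the tetraploid and 216 ± 8.48 CPM in the diploid (SD, n = 3 each), or 82.9% of the diploid level. LOC_Os11g41130 had 56.3, 56.5 and 50.6 CPM in the Balilla-4x libraries and 63.1, 62.2 and 66.8 CPM in the Balilla-2x libraries. Its neighbour LOC_Os11g41140 had 25.2 ± 1.42 CPM in the tetraploid and 22.7 ± 2.67 CPM in the diploid (SD, n = 3 each), and the lines overlapped. LOC_Os11g41160 was lower by less than 2-fold, with 70.8, 51.5 and 51.5 CPM in Balilla-4x against 95.3, 79.9 and 91.0 CPM in Balilla-2x (log2 fold change -0.61, SE 0.17). The silent LOC_Os11g41100 and the read LOC_Os11g41130 were thus separated by 1 locus, which had no count.

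The second stretch began with a partial reduction. LOC_Os11g41210 had 26, 27 and 35 counts in Balilla-4x and 116, 74 and 58 counts in Balilla-2x, with a log2 fold change of -1.48 (SE 0.31), the smallest among the lowered members. Without Balilla-4x replicate 2 it no longer passed both thresholds. LOC_Os11g41260, read at 1.98 ± 0.738 CPM in the tetraploid and 1.20 ± 0.223 CPM in the diploid (SD, n = 3 each), separated it from 3 adjacent loci that were nearly silent in the tetraploid.

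Those 3 loci kept 1 to 3 counts each over the Balilla-4x libraries. LOC_Os11g41365 had counts of 2, 0 and 0 in the Balilla-4x libraries and 237, 199 and 196 in the Balilla-2x libraries, a ratio of 314 in favour of the diploid (exact Poisson 95% interval 86.5 to 2597). LOC_Os11g41370 had 0, 0 and 1 counts in Balilla-4x and 52, 31 and 37 in Balilla-2x, a ratio of 119 with an interval of 21 to 4745. LOC_Os11g41380 had 1, 0 and 2 counts in Balilla-4x and 249, 280 and 214 in Balilla-2x, a ratio of 246 with an interval of 83.8 to 1195. Their few Balilla-4x counts fell in replicates 1 and 3 of the tetraploid, and replicate 2 had none.

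The third stretch was silent throughout in the tetraploid, with 0 counts over its 5 loci in all Balilla-4x libraries and 3043 counts in the Balilla-2x libraries. LOC_Os11g42040 made up most of it, with 903, 797 and 844 counts in Balilla-2x, where it averaged 48.8 ± 3.25 CPM (SD, n = 3). In the tetraploid it was at least 281-fold lower. LOC_Os11g42030 had 0 counts in each tetraploid library and 90, 89 and 39 in the diploid ones, a loss of at least 23.9-fold. LOC_Os11g42070, the last member, had 0 counts in each tetraploid library and 118, 53 and 87 in the diploid ones, a loss of at least 28.5-fold. The loci between them, LOC_Os11g42050 and LOC_Os11g42060, were hardly read in the diploid either, with at most 1 and 16 counts in a library.

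**Figure D4:**
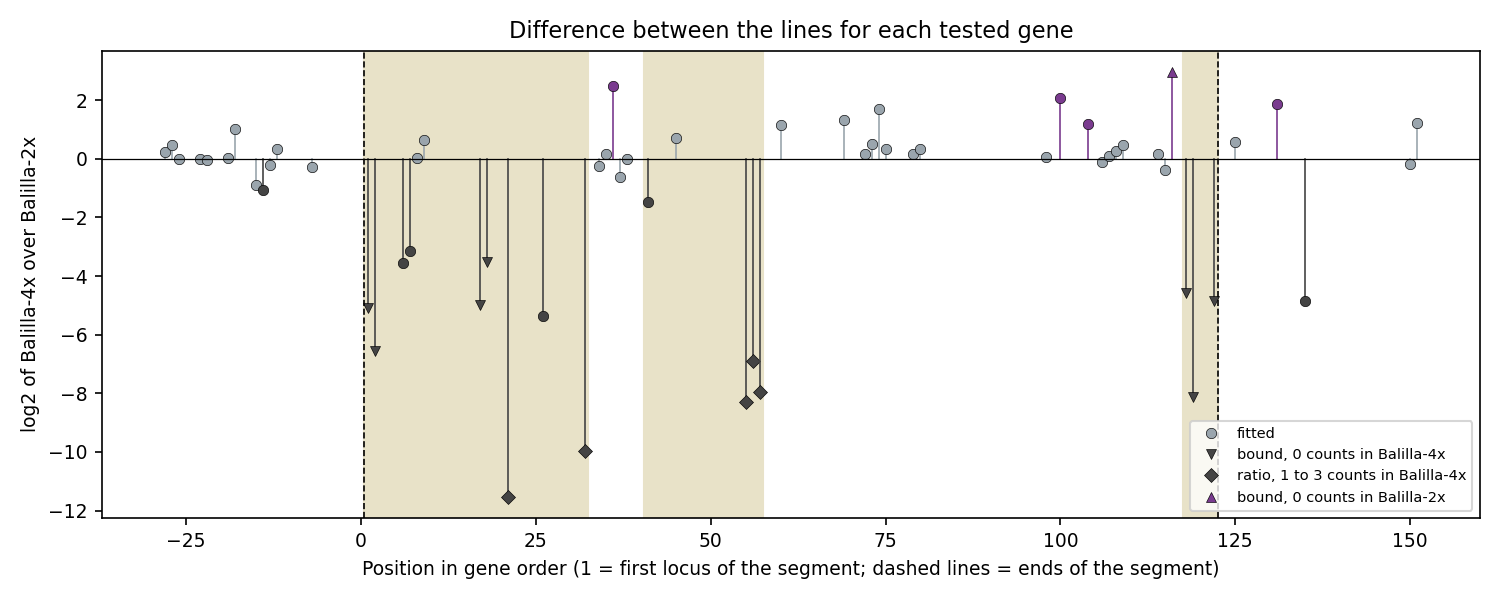
Log2 of Balilla-4x over Balilla-2x for each tested gene of the segment and its flanks in gene order; circles are fitted values, triangles are bounds where a line had 0 counts, diamonds are ratios over 1 to 3 counts, and bands are the lowered stretches. Black marks genes at least 2-fold lower, purple genes at least 2-fold higher and grey the rest, of which the members lie between -0.61 and 1.70.

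A few members went the other way. LOC_Os11g41875 was the most abundant of the 4 higher ones, with 177, 279 and 297 counts in the Balilla-4x libraries and 102, 121 and 107 in the Balilla-2x libraries. It stood at 14.5 ± 3.67 CPM in the tetraploid and 6.33 ± 0.530 CPM in the diploid (SD, n = 3 each), a log2 fold change of 1.20 (SE 0.24). LOC_Os11g42010, next to the third lowered stretch, had 13, 37 and 20 counts in Balilla-4x and 0 counts in every diploid library, so the tetraploid was at least 7.79-fold higher. A locus read in the tetraploid and not in the diploid thus lay 2 loci before one with the opposite pattern.

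The other higher members had few counts and depended on single libraries. LOC_Os11g41150 had 21, 16 and 20 counts in Balilla-4x and 1, 6 and 3 in Balilla-2x (log2 fold change 2.48, SE 0.77). LOC_Os11g41840 had 90, 57 and 42 counts in Balilla-4x and 32, 5 and 8 in Balilla-2x (log2 fold change 2.08, SE 0.86), with replicate 1 the highest library in each line. LOC_Os11g41840 kept its call only without Balilla-2x replicate 1, where its log2 fold change was 3.25, and lost it in each of the other 5 omissions of a library. LOC_Os11g41150 lost its call without Balilla-4x replicate 3 and without Balilla-2x replicate 3, which each left 2 of the 4 higher members, and also with limma on log2 of FPKM plus 1. Its log2 fold change was 3.16 without Balilla-2x replicate 2. LOC_Os11g41875 and LOC_Os11g42010 kept their calls in each of the 6 omissions. The 16 lower members kept direction and call in every fit that left out a library, except LOC_Os11g41210 as given above.

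Several abundant genes of the segment did not pass both thresholds. The following 3 lay among the 60 loci from LOC_Os11g41390 to LOC_Os11g42020. LOC_Os11g41910 had 131, 156 and 163 CPM in the Balilla-4x libraries and 118, 149 and 113 CPM in the Balilla-2x libraries, with overlapping lines (log2 fold change 0.25, SE 0.16). LOC_Os11g41820 had 109, 116 and 129 CPM in the tetraploid libraries and 105, 114 and 118 CPM in the diploid ones. LOC_Os11g41600 had 76.5, 88.9 and 83.2 CPM in the tetraploid libraries and 85.5, 62.8 and 70.9 CPM in the diploid ones. In each of these genes the difference between the means was smaller than the gap between the lowest and highest library of a line.

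LOC_Os11g41990, near the third lowered stretch, had 87.7, 83.9 and 89.2 CPM in Balilla-4x and 82.2, 71.3 and 79.4 CPM in Balilla-2x. The lines were separate but close, at a log2 fold change of 0.16 (SE 0.07), and the gene was not called. LOC_Os11g41540 was higher by less than 2-fold, at 73.9 ± 5.72 CPM in the tetraploid and 52.7 ± 4.05 CPM in the diploid (SD, n = 3 each, log2 fold change 0.49, SE 0.09). Per length the highest member in either line was LOC_Os11g41610, a gene model of 171 bases with 152 ± 8.44 FPKM in the tetraploid and 116 ± 12.3 FPKM in the diploid (SD, n = 3 each). The median log2 fold change over the 42 tested members was 0.02, beside 0.01 over all tested genes. It stayed at 0.02 once genes with 0 counts in a line were set to their floor. That step moved only members far from the middle, so it could not shift their median.

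The weakly read members are given by their counts alone. Among the 24 below the filter, 6 had counts in Balilla-4x only, at most 12 in a library and 35 together. Counts in Balilla-2x only were found for 11, at most 22 in a library and 153 together. The last 7 had counts in both lines, 67 in Balilla-4x and 42 in Balilla-2x. LOC_Os11g40890, one of those with counts in Balilla-2x only, had 0 counts in each Balilla-4x library and 7, 12 and 11 in the Balilla-2x libraries, and it lay inside the first lowered stretch. LOC_Os11g41710 had 0 counts in each Balilla-4x library and 20, 10 and 1 in Balilla-2x, and it lay among the 60 loci outside the lowered stretches. None of the 24 was tested, and the same split was not made over the genome, so nothing is read from it. In total 18 of the 122 members had a count in Balilla-2x and none in Balilla-4x, as had 1764 of the 55986 gene models. The reverse held for 7 members and for 2751 gene models.

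The rule did not use gene length. The gene models of the lowered members had a median length of 3004 bases (618 to 5898), against 1529 bases for the other 26 tested members and 1821 bases for all tested genes. In the diploid their median level per length was 5.46 FPKM, against 8.77 FPKM for the other tested members and 9.17 FPKM for all tested genes. In the tetraploid the other tested members had a median of 12.1 FPKM, beside 9.56 FPKM for all tested genes. These are descriptions of a set chosen on its counts, and a longer gene collects more counts at the same level per length.

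Replicate libraries varied by amounts of the same order in the segment and in the genome. Over members with a mean of at least 5 CPM in the line, the median coefficient of variation was 8.48% in Balilla-4x (15 members) and 8.94% in Balilla-2x (25 members). Over all genes of that level it was 10.7% in Balilla-4x and 9.58% in Balilla-2x.

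At the left edge the limits of the segment matched a gap of weakly read loci. The nearest locus with a count outside it was LOC_Os11g40740, with 0 counts in each Balilla-4x library and 0, 5 and 0 in the Balilla-2x libraries. The nearest tested gene, LOC_Os11g40674, had 16, 11 and 3 counts in Balilla-4x and 6, 18 and 13 in Balilla-2x, and the lines overlapped. Only 12 of the 30 loci of this flank were tested, 1 of them at least 2-fold different, where the genome had 11.7% of tested genes. That gene was LOC_Os11g40590, with 97.0, 61.3 and 58.3 CPM in Balilla-4x and 153, 136 and 168 CPM in Balilla-2x. LOC_Os11g40510, the most abundant flank gene, had 524 ± 9.92 CPM in the tetraploid and 538 ± 29.5 CPM in the diploid (SD, n = 3 each).

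Past the right edge the differences went in both directions. Counts in Balilla-2x only were found at 2 loci of this flank and 3 of the left one. Counts in Balilla-4x only were found at 2 loci of each flank. All of these loci were below the filter. Of the 55986 gene models, 1764 had counts in Balilla-2x only and 2751 in Balilla-4x only. LOC_Os11g42100, the nearest tested gene, was read in both lines, with 98, 54 and 72 counts in Balilla-4x and 74, 46 and 34 in Balilla-2x. The locus after it, LOC_Os11g42110, had 0 counts in each Balilla-4x library and 6, 5 and 14 in Balilla-2x. LOC_Os11g42160 was higher in the tetraploid, with 1394, 1660 and 1508 counts in Balilla-4x and 402, 386 and 460 in Balilla-2x (log2 fold change 1.88, SE 0.11). LOC_Os11g42200 had 0, 6 and 6 counts in Balilla-4x and 44, 11 and 295 in Balilla-2x, where replicate 3 stood far above the others. Of the 5 tested genes in this flank, these last 2 were at least 2-fold different. Over both flanks the count was 3 of 17. It became 1 without replicate 2 of Balilla-4x, and 1 without replicate 3 of that line. Both omissions removed the calls of LOC_Os11g40590 and LOC_Os11g42200. LOC_Os11g42200 also lost its call without Balilla-2x replicate 3 and with limma on log2 of FPKM, both plus 1 and plus 0.1.

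Together the flanks summed to 924 ± 32.4 CPM in the tetraploid and 965 ± 54.5 CPM in the diploid (SD, n = 3 each), or 95.7% of the diploid level. LOC_Os11g40510 alone held 524 CPM of the tetraploid sum and 538 CPM of the diploid sum. The segment stood at 67.1%, but it was delimited for its low tetraploid counts. A lower share there was built in, and nothing is read from the contrast. RNA counts alone do not tell a locus that is present and not transcribed from one whose sequence is missing or does not align to the reference, so these states cannot be told apart here. DNA was not analysed here. Reads of near-identical neighbours or of overlapping genes may have been assigned between loci, which was not tested.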

How the data were processed

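Leaf RNA libraries (Illumina TruSeq RNA kit, per the labels' protocols) were compared between Balilla-4x and Balilla-2x, 3 per line, grouped by their labels. The authors deposited raw read counts per gene, per the file headers, and FPKM values for each library, per the file headers. Per the submitters' processing notes, HISAT2 2.1.0 was the aligner. For the counter, genome build, annotation and strand setting, nothing is given in the sources used here. Library totals ran from 16738447 to 18106962 counts, so 3 counts, used as the floor where a line had 0, equal 0.17 to 0.178 CPM. The deposited FPKM and counts imply 1 whole gene length (within 0.01 base) for each of 30986 genes with a count, used here as the length. Libraries of a line differed by far more than sampling noise (chi-square over its degrees of freedom at least 8.37), so none is a copy. Balilla-4x replicate 1 stood apart, at 24.1 against replicate 2 and 28.5 against replicate 3. Those other libraries of the line gave 8.37 between them, and Balilla-2x pairs gave 13.1 to 14.8.

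Genes were tested over the whole table in R 4.3.3 with edgeR 4.0.16 (filterByExpr, 20976 genes kept, TMM, quasi-likelihood F test, two-sided, Benjamini-Hochberg over all tested genes, adjusted p under 0.05), and a 2-fold threshold was set beside it. CPM use TMM-scaled totals. Standard errors are those of the difference of mean log2 CPM. Ratios over 1 to 3 counts carry exact Poisson 95% intervals, and floors and intervals cover counting error only. Values are relative to total RNA, so RNA per cell was not measured. Alternatives were DESeq2 1.42.0, other scalings and filters, limma 3.58.1 on log2 FPKM, a replicate block and the omission of each library. The fit was tested on simulated data. Members, stretches and the count limits for silence were chosen with earlier results of these data known. Values per library are given for members of at least 1 CPM in either line that were at least 2-fold different or read in 1 line only and for the 5 most abundant others, for the nearest tested flank genes and for flank genes at least 2-fold different at 5 CPM or more. LOC_Os11g40510, LOC_Os11g40740, LOC_Os11g42110 and other members named beyond this were chosen after their values were seen.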

Additional observations from a re-analysis of the deposited data

How the results depend on the processing

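The 16 lower members were all called at least 2-fold lower with library totals, DESeq2 size factors, no filter, a filter of 10 counts, DESeq2, limma on log2 of FPKM plus 0.1 and the replicate block. With FPKM plus 1, 13 were left, since the added value shrinks the folds of low genes. Leaving out each library gave 20 to 24 changed members against 22, 16 to 17 lower, 2 to 5 higher against 4, 11 to 12 read in Balilla-2x only against 11, 0 to 0 in Balilla-4x only, 1 to 4 flank genes against 3, a median log2 fold change of -0.08 to 0.03 against 0.02, and a log2 ratio of summed CPM of -0.61 to -0.55 against -0.57. That ratio was -0.52 with library totals, and the median was -0.31 with no filter, where 66 members were tested in place of 42. Higher members numbered 7 by fitted fold alone. Flank genes numbered 1 at a fold of 4 and 5 with 60 loci on each side. Members read in Balilla-2x only numbered 6 with 0 counts asked of Balilla-4x and 6 with at least 100 asked of Balilla-2x, and 1 member was read in Balilla-4x only with at least 10. No other alternative moved these counts by over 1.5 times. Of 236 alternative values for 25 named members, 0 changed sign. Replicate numbers do not pair the libraries (correlations of deviations 0.0019, -0.02 and -0.04), and with the replicate block 16 members were lower and 5 higher. Depth limits the 24 members below the filter.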
